A study of Mus musculus with 4 samples.

Results

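The cells described here are fibroblasts of the mouse heart in which neither Pi16 nor Dpp4, markers of adventitial fibroblasts, gave a single UMI (unique molecular identifier, 1 counted RNA molecule). A cell barcode was kept with at least 500 UMIs, at least 200 genes and at most 20% of its UMIs from mitochondrial genes. It passed the fibroblast gate when Col1a2, Dcn and Col3a1 together made up at least 50 of every 10000 UMIs and when the endothelial gene Cdh5, the leukocyte gene Ptprc and the smooth muscle gene Myh11 were at 0. Members had Pi16 and Dpp4 at 0 as well, and at most 1 of Comp, Fmod, Wif1, Chad and Cilp2 detected. The rule found 2327 members among 41542 kept barcodes, of 43074 deposited, and among 8085 barcodes that passed the fibroblast gate. Of the members, 889 came from the control library, 317 from sham, 406 from CLP and 715 from CLP plus stimulation.

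The study profiled all cells of the heart by droplet single-cell RNA sequencing with 1 library per group. CLP is cecal ligation and puncture, an operation that lets gut bacteria into the abdomen and is used as a mouse model of sepsis, and sham is its surgical control. The fourth library carries the title of sepsis with low-level tragus stimulation, a weak current at the part of the outer ear that a branch of the vagus nerve supplies, while its treatment label names the stimulation alone. The labels used here give no strain, sex or age, and neither how many mice went into a library nor when the hearts were taken. As each group is a single library, no difference could be checked in replicates, no test was made, and every interval below is a 95% interval that covers counting error only. A list median is given with the 95% interval of the median over the list's genes, which are not replicates. CLP and CLP plus stimulation are called the septic libraries.

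Cardiac fibroblasts lie between the muscle fibres and around the vessels. They make and turn over the collagens, proteoglycans and basement membrane that carry the heart's load, and they also release growth factors, complement proteins, cytokines and chemokines that act on leukocytes, vessels and muscle cells. Fibroblasts with Pi16 and Dpp4 are known from the adventitia and other perivascular sites of many organs, and fibroblasts without them are often taken as interstitial cells.

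The members carried fibroblast RNA. Values of the 4 libraries are given in the order control, sham, CLP, CLP plus stimulation throughout. Dcn stood at 13560, 16580, 16270 and 16600 counts per 1000000 UMIs (CPM), Col1a2 at 1895, 2479, 1293 and 460, and Col3a1 at 2492, 3316, 1238 and 270. The members were chosen by these 3 genes and by the absence of Pi16, Dpp4 and the other genes of the rule, so their levels are a description. Pdgfra, a receptor for platelet-derived growth factor that the rule did not use, had a UMI in 47.6%, 68.1%, 67.2% and 52.7% of the members, against 1.39% to 2.30% of leukocyte-gated and 2.53% to 4.17% of endothelial-gated barcodes. Among members with at least 1500 UMIs it was seen in 56.2%, 76.7%, 76.5% and 76.0%. At least 3 of Dcn, Col1a2, Col3a1 and Pdgfra were detected in 83.1%, 91.2%, 82.3% and 50.1% of the members. The word interstitial was less clearly borne out. A list of 14 genes often linked to interstitial fibroblasts lay at a median log2 ratio of 0.30, 0.30, -0.10 and 0.34 over adventitial fibroblasts of the same library, and Col15a1 was lower in members than in adventitial cells in all 4 libraries, at 627 against 838 CPM in control. The cells are therefore called Pi16- Dpp4- fibroblasts.

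Depth differed between the libraries. The members had a median of 3369, 6156, 6917 and 3434 UMIs, and 23.5%, 13.2%, 15.0% and 37.6% of them held fewer than 1500. The libraries held 54611436 to 59465046 UMIs, and the members' UMIs summed to 3122540, 1926895, 2790008 and 3425477. The pairs of libraries shared 19 to 60 barcodes, and no barcode was a member in more than 1 library. CLP plus stimulation had the largest share of members under 1500 UMIs, while the median depth of control members was about as low. Some list medians of CLP plus stimulation over CLP are therefore also given for members with at least 2000 UMIs. Just inside the threshold, at 50 to 60 per 10000 UMIs, lay 49, 14, 26 and 71 members, with a median of 778, 1107, 1198 and 972 UMIs. Just outside, at 40 to 50, lay 45, 19, 19 and 71 barcodes, with a median of 1068, 824, 1007 and 1016 UMIs.

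RNA of other cell types was present and differed between libraries. The 10 neutrophil markers summed to 128, 52.9, 632 and 1234 CPM in the members, with only Ltf at 0 in control and CLP, Csf3r, Cxcr2, Ngp and Ltf at 0 in sham, and none at 0 in CLP plus stimulation. At least 3 of them were seen in 0.450% of control, 9.85% of CLP and 26.4% of CLP plus stimulation members and in 0 of 317 sham members, which allows a share of up to 0.946%. The 10 macrophage markers summed to 1197, 569, 279 and 564 CPM, and at least 3 of them were seen in 12.04%, 21.1%, 7.64% and 18.7% of members. Shares of members with at least 3 markers were taken without thinning, so they also depend on depth. Median depths of the members were 3369, 6156, 6917 and 3434 UMIs. The 10 endothelial markers summed to 336, 193, 716 and 1335 CPM, of which Fabp4 gave 232, 120, 500 and 1198. None of these macrophage or endothelial markers was at 0 in any library. The 6 glial markers summed to 75.9, 97.0, 12.9 and 4.67 CPM, with 0, 0, 2 and 4 of them at 0. Smooth muscle markers summed to 424, 428, 94.6 and 40.3 CPM, pericyte markers to 290, 321, 259 and 121, and T or NK cell markers to 3.52, 3.63, 2.15 and 23.6. Leaving out members with more than 50 UMIs of other types per 10000 kept 762, 291, 351 and 416 cells. The types counted were macrophage, neutrophil, T or NK cell, B cell, endothelial, cardiomyocyte and erythroid. Glial, smooth muscle and pericyte markers were not counted. The B cell marker Ebf1 was counted, and it stood at 308, 354, 230 and 122 CPM in the members. The part of other cell types in the differences between libraries was not tested.

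Pi16- Dpp4- fibroblasts were 5.70% (5.34 to 6.07), 3.53% (3.16 to 3.94), 4.87% (4.42 to 5.36) and 8.27% (7.70 to 8.87) of kept barcodes. Among barcodes that passed the fibroblast gate they were 28.1% (26.5 to 29.7), 20.1% (18.1 to 22.1), 21.3% (19.5 to 23.2) and 49.8% (47.1 to 52.4). Counting only members with at most 50 UMIs of other types per 10000, the shares of kept barcodes were 4.89% (4.55 to 5.24), 3.24% (2.89 to 3.63), 4.21% (3.79 to 4.67) and 4.81% (4.37 to 5.28), so that of CLP plus stimulation was no longer above that of control, and the shares of fibroblast-gated cells were 24.1% (22.6 to 25.6), 18.4% (16.5 to 20.4), 18.4% (16.7 to 20.2) and 28.9% (26.6 to 31.4). In both of these shares the limit was put on the members and not on the cells they were divided by. Under the same limit, 762, 291, 351 and 416 members stood beside 1897, 1110, 1290 and 545 adventitial cells. Without the limit, the share depended on depth in every library. Of the Pi16- Dpp4- and adventitial cells with 500 to 1000 UMIs, 62.7%, 64.4%, 67.7% and 80.7% lacked both genes. At 8000 to 16000 UMIs the shares were 14.1% (9.35 to 20.1), 13.4% (10.7 to 16.4), 16.5% (14.1 to 19.0) and 31.2% (27.1 to 35.5), so control, sham and CLP overlapped and CLP plus stimulation lay above them. With every barcode thinned to 1000 UMIs before the rule was applied, 49.5%, 47.8%, 48.8% and 71.8% of fibroblast-gated cells were members. Pi16 had a UMI in 67.7%, 76.1%, 75.4% and 47.7% of all fibroblast-gated cells and Dpp4 in 5.85%, 8.55%, 1.47% and 0.557%. In leukocyte-gated barcodes, which should lack it, Pi16 had a UMI in 5.64%, 8.39%, 16.8% and 8.67%. Median depths of those barcodes were 3876, 6115.5, 7607 and 7795 UMIs.

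**Figure D1:**
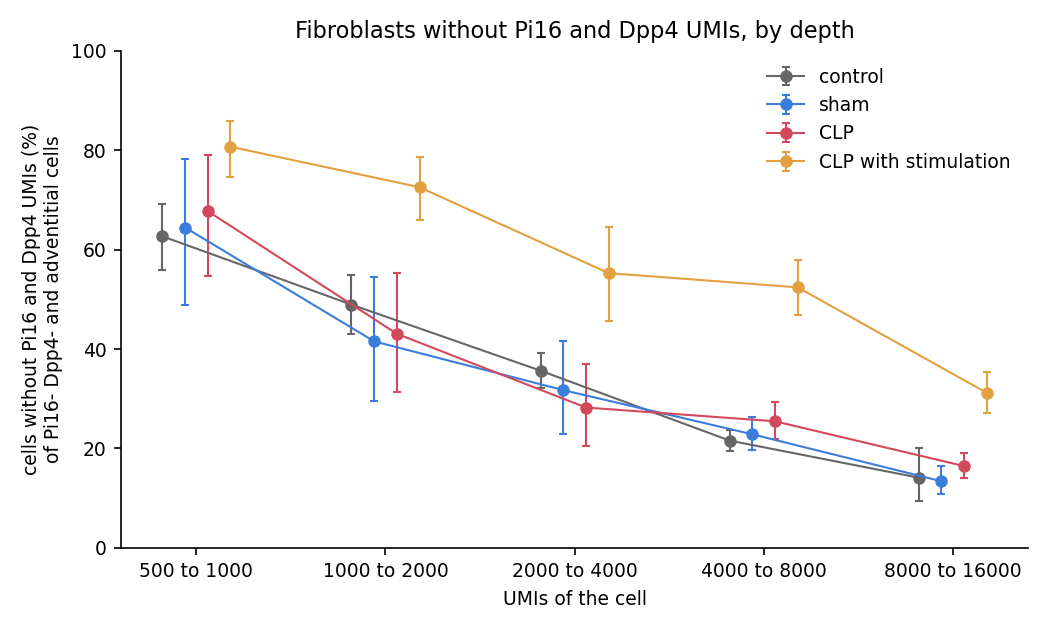
Share of Pi16- Dpp4- cells (y axis, %) among Pi16- Dpp4- and adventitial fibroblasts in 5 ranges of UMIs per cell (x axis), 1 line per library, with bars for exact 95% binomial intervals. The share decreases with depth in every library, and CLP plus stimulation lies highest in each range, from 80.7% at 500 to 1000 UMIs to 31.2% at 8000 to 16000.

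Adventitial fibroblasts are the cells of the same gate in which Pi16 or Dpp4 was detected. Of 10285 genes measured in all 4 libraries, 48 (0.467%) were at least 2-fold higher in Pi16- Dpp4- fibroblasts in every library and 49 (0.476%) at least 2-fold lower. When cells were thinned to 1000 UMIs before the rule, which moves cells with few Pi16 molecules into the members, these counts were 8 and 10. Since Pi16 divided the cells, the values below describe the division and carry no test. RNA of other types also differed. Neutrophil markers summed to 47.9, 53.4, 335 and 574 CPM in adventitial cells against 128, 52.9, 632 and 1234 in members. Macrophage markers gave 621, 536, 248 and 259 against 1197, 569, 279 and 564, and pericyte markers 142, 131, 125 and 64.5 against 290, 321, 259 and 121. Endothelial markers summed to 414, 273, 1183 and 1535 CPM in adventitial cells against 336, 193, 716 and 1335. Much of that difference came from Ly6c1, which is also known from adventitial fibroblasts. It gave 122.5, 143.5, 645.2 and 196.6 CPM in adventitial cells against 28.2, 16.6, 144 and 75.3 in members. The part of this RNA in the differences below was not tested.

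Growth and binding factors stood among the higher genes. Igfbp3, a carrier of insulin-like growth factors, was at 376, 637, 335 and 188 CPM in Pi16- Dpp4- fibroblasts and at 28.7, 36.5, 55.3 and 78.3 in adventitial cells, log2 ratios of 3.71, 4.12, 2.60 and 1.26. The gap was widest in sham and narrowest in CLP plus stimulation, which had the lowest level in members and the highest in adventitial cells. Rspo3, a secreted enhancer of Wnt signalling, had log2 ratios of 3.64, 3.50, 2.92 and 2.27, and Ptn, the growth factor pleiotrophin, 2.34, 3.22, 2.88 and 1.10. Cyp2e1, a cytochrome P450 enzyme, lay at 4.77, 4.26, 3.19 and 1.38. Ecrg4 held its distance in all libraries at 2.77, 2.96, 2.75 and 2.94, as did the chaperone clusterin, Clu, at 2.33, 3.00, 2.19 and 2.59. Apoe, the lipid carrier apolipoprotein E, was at 16200, 13110, 5691 and 4014 CPM in members, log2 ratios of 2.27, 2.26, 2.09 and 1.29. Apoe was also high in leukocyte-gated barcodes, at 4363 to 24500 CPM, and the part of leukocyte RNA in this difference was not tested.

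The lower genes included the adventitial surface protein Cd248, at 32.7, 22.3, 24.0 and 3.80 CPM in members against 289, 253, 153 and 19.8 in adventitial cells, log2 ratios of -3.14, -3.49, -2.66 and -2.34. The axon guidance factor Sema3c lay at -2.56, -2.82, -1.85 and -1.09, and the matrix protein Cilp at -1.88, -4.08, -1.28 and -1.72. The list of genes known from adventitial fibroblasts of many organs had medians of -1.59, -1.61, -1.39 and -0.99 over adventitial cells. Paracrine growth factors lay at 0.68, 0.68, 0.58 and -0.03 and chemokines at 0.69, 0.83, 0.39 and 0.45. Collagens lay at -0.20, -0.17, -0.06 and -0.65 and fibroblast identity genes at -0.28, -0.15, -0.19 and -0.34, so both lists were close in the 2 populations in control, sham and CLP. Against fibroblasts with at least 2 of Comp, Fmod, Wif1, Chad and Cilp2, 143 of 8172 genes (1.75%) were at least 2-fold higher in all 4 libraries and 82 (1%) at least 2-fold lower, and 51 and 38 after thinning before the rule. Cxcl14 was among the higher, at log2 ratios of 6.38, 5.94, 2.83 and 4.59, together with the peptidase Dpep1 at 5.04, 4.26, 4.40 and 4.47, and the secreted protein Angptl7 among the lower at -3.87, -4.84, -6.28 and -4.68. The cells compared with numbered only 253, 122, 127 and 43. They held Cxcl14 at 3.13, 3.41, 52.9 and 63.7 CPM, so its ratios in control and sham rest on few UMIs.

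**Figure D2:**
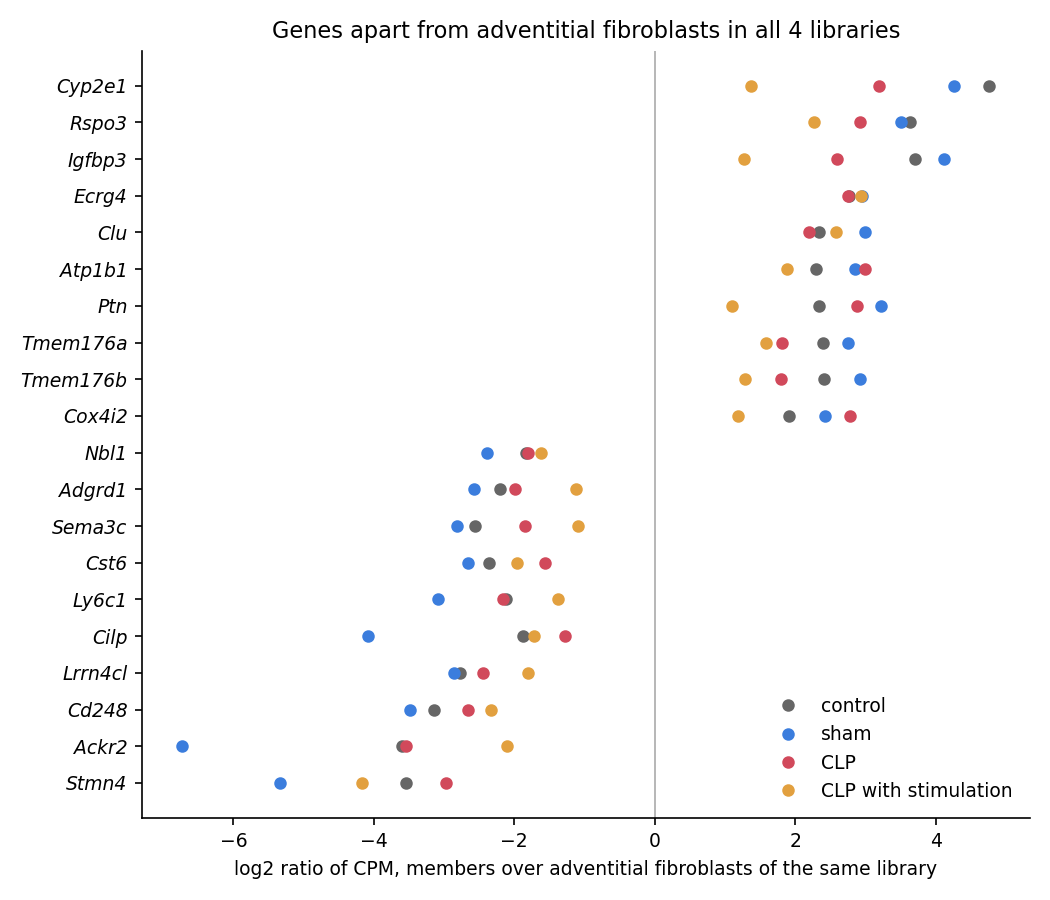
Log2 ratio of CPM in Pi16- Dpp4- over adventitial fibroblasts (x axis) for the 10 highest and 10 lowest genes among those at least 2-fold apart in all 4 libraries (y axis), 1 point per library. Ecrg4 and Clu keep their distance in every library, while Cyp2e1 goes from 4.77 in control to 1.38 in CLP plus stimulation.

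Sham over control shows how much 2 libraries without sepsis differed. A gene counts as higher or lower here when its CPM differed at least 2-fold between 2 libraries, among genes with at least 20 UMIs over both. Of 10489 such genes, 207 (1.97%) were higher in sham and 190 (1.81%) lower, and the median log2 ratio over all of them was 0.06. Il6, the cytokine interleukin 6, was at 143, 372, 291 and 360 CPM over the 4 libraries, and its log2 ratio of sham over control was 1.38 (1.21 to 1.55). Only control stood low. Tcf21, a transcription factor of fibroblast identity, was at 134, 277, 134 and 287 CPM, high in sham and in CLP plus stimulation, with a log2 ratio of 1.04 (0.85 to 1.23). Ccn1, a matricellular protein, was at 473, 1022, 594 and 558 CPM. Ccl2, a chemokine that draws monocytes, was at 317, 613, 317 and 535 CPM, a log2 ratio of 0.95 (0.83 to 1.08) in sham over control.

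Lower in sham were Prg4, at 178 and 53.5 CPM in control and sham, with a log2 ratio of -1.73 (-2.05 to -1.43), and Cilp, at 51.6 and 10.4 CPM, with -2.28 (-3.06 to -1.64). Clu was at 106 and 60.2 CPM, -0.81 (-1.13 to -0.50), but among members with a Pdgfra UMI its ratio was 0.31. By list, chemokines had a median of 0.45 with 3 of 14 measured members higher and 1 lower, and interferon response genes 0.48 with 4 of 30 higher and 0 lower. The interferon genes that led were Rsad2, an antiviral enzyme, at 5.12 and 20.2 CPM, and Dhx58, an RNA sensor, at 2.88 and 7.78. Interferon list medians were 0.38 in adventitial, 0.61 in leukocyte-gated and 0.29 in endothelial-gated cells. Collagens lay at 0.24 with 0 of 18 past 2-fold and fibroblast identity genes at 0.21 with 1 of 24, Tcf21.

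In CLP, Pi16- Dpp4- fibroblasts held large amounts of acute phase RNA and less collagen RNA than in sham. Of 10215 genes, 340 (3.33%) were higher in CLP and 745 (7.29%) lower, with a median log2 ratio of -0.10 over all genes. TMM scaling moved that median by 0.13, and 31.3% of the called genes were higher in the main scaling, 46.0% under TMM and 43.0% under DESeq2 size factors. Acute phase and metal response genes lay at a median of 1.67 (0.53 to 4.86), 16 of the 25 measured being higher and 0 lower. Its 2 members without a UMI in sham leave that median at 1.67 when they are set to a floor of 3 UMIs. Collagens had a median of -1.14 (-1.71 to -0.71), with 0 of 18 higher and 12 lower.

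Saa3 (chr7:46711998-46715700, minus strand, GRCm38), a serum amyloid A protein of the acute phase that is made outside the liver, showed the largest log2 ratio among the genes named by the rule. It had no UMI in control, where the interval reaches 1.18 CPM, and in sham 1 UMI, and stood at 8328 CPM in CLP and 9562 in CLP plus stimulation. The log2 ratio of CLP over sham was 13.4 (11.49 to 19.27), wide because sham held a single UMI. Leukocyte-gated barcodes held still more Saa3, with 41950 CPM in CLP, and endothelial-gated ones 2662. After thinning to 1000 UMIs, Saa3 was seen in 73.6% of CLP and 84.8% of CLP plus stimulation members, 90.4% and 88.7% of leukocyte-gated and 72.1% and 80.9% of endothelial-gated barcodes, so the gene was detected in most cells of all 3 classes. Lcn2 (chr2:32384633-32388252, minus strand), the iron-siderophore binding protein lipocalin 2, was at 7.69, 4.67, 3874 and 4874 CPM, with 4107 in leukocyte-gated and 792 in endothelial-gated barcodes of CLP. The part of RNA from other cells in the members' levels of these 2 genes was not tested.

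Serpina3n (chr12:104406729-104414329, plus strand), a secreted serine protease inhibitor, was far higher in fibroblasts than in other gated cells. It was at 50.6, 104, 3014 and 3041 CPM in the members, both septic libraries standing above both others. The log2 ratio of CLP over sham was 4.86 (4.66 to 5.07). Leukocyte-gated barcodes of CLP held 28.2 CPM and endothelial-gated ones 70.5. After thinning it was seen in 4.38%, 8.33%, 81.0% and 82.1% of members, and in 2.92% and 4.07% of leukocyte-gated barcodes of the septic libraries. Prg4 (chr1:150449412-150466165, minus strand), the lubricating proteoglycan lubricin, was at 178, 53.5, 5269 and 12055 CPM, a log2 ratio of 6.62 (6.34 to 6.92), with 25.5 CPM in leukocyte-gated and 46.4 in endothelial-gated barcodes of CLP. It was seen in 5.58%, 1.74%, 56.3% and 78.4% of thinned members, against 3.19% and 7.70% of leukocyte-gated barcodes in the septic libraries. Chil1 (chr1:134182176-134190181, plus strand), a chitinase-like protein, was at 2.88, 0.519, 1114 and 526 CPM, where sham held 1 UMI. Its log2 ratio was 10.5 (8.59 to 16.37). It was carried by fewer cells, with a UMI in 16.8% of CLP and 8.88% of CLP plus stimulation members after thinning, against 4.29% and 3.59% of adventitial cells. Fibroblasts with at least 2 of Comp, Fmod, Wif1, Chad and Cilp2 held more of it, at 43.2, 25.9, 6146 and 6989 CPM.

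**Figure D3:**
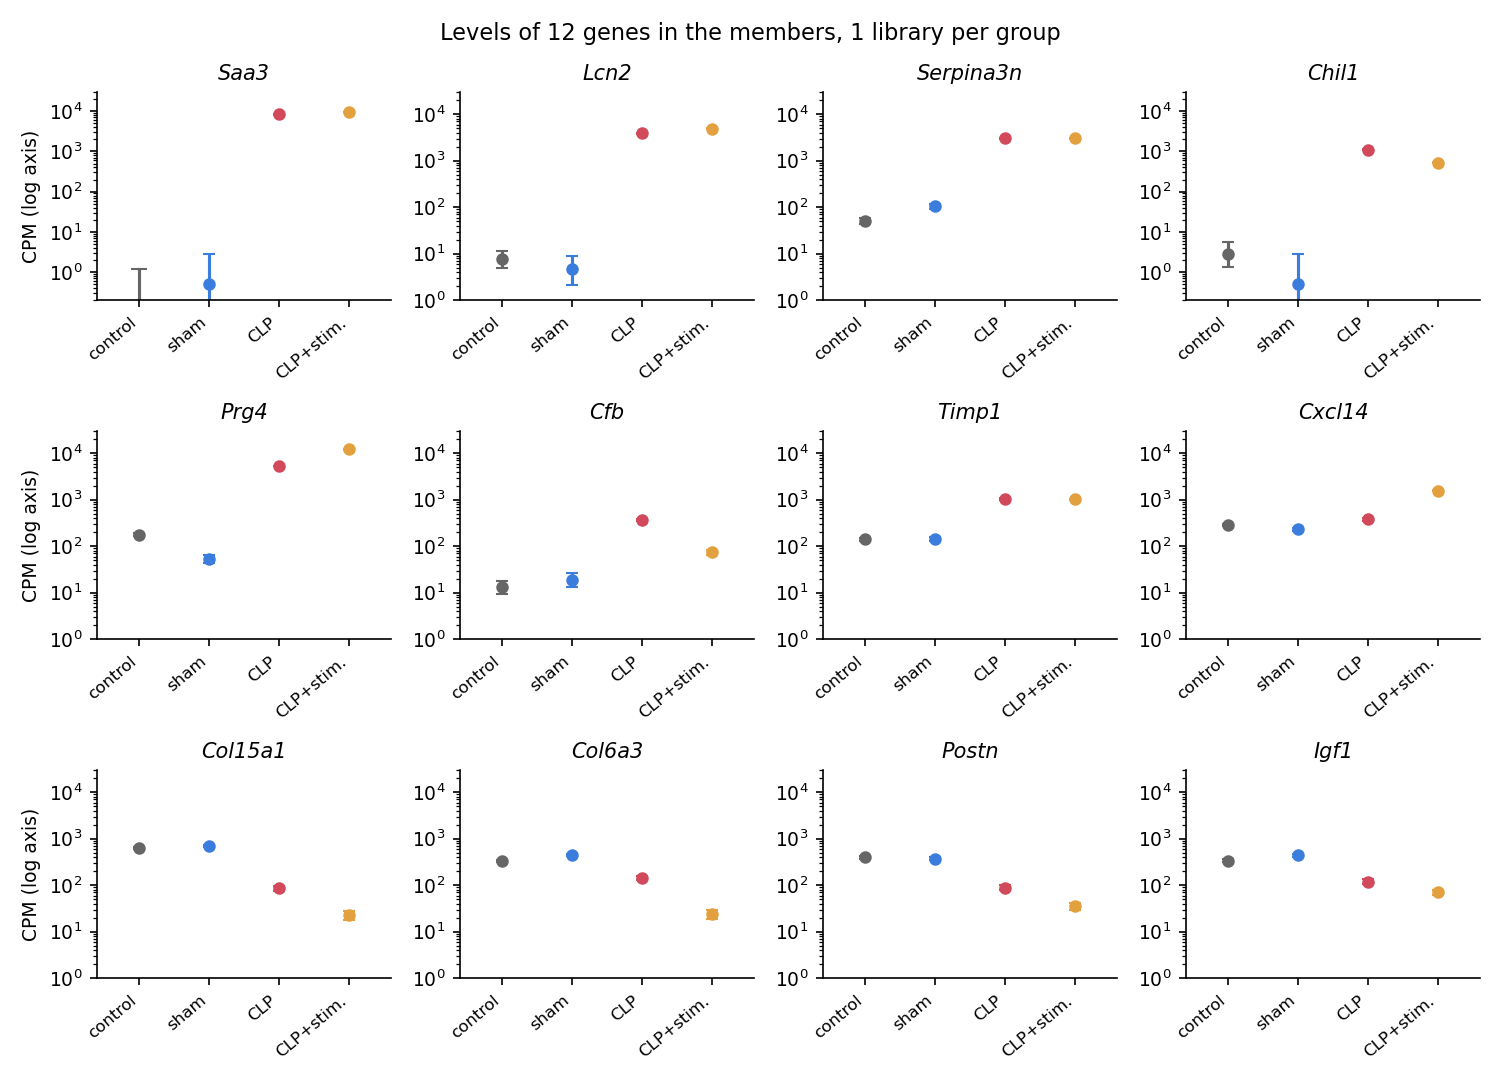
Levels of 12 genes in Pi16- Dpp4- fibroblasts (y axes, CPM on a log axis) in the 4 libraries (x axes), with bars for exact 95% Poisson intervals. Saa3, Lcn2, Serpina3n, Chil1, Prg4, Cfb and Timp1 stand higher in CLP than in sham, Col15a1, Col6a3, Postn and Igf1 lower, and Cxcl14 is highest in CLP plus stimulation at 1566 CPM.

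Several genes of this response are known targets of C/EBP factors, and the RefSeq promoters (GRCm38.p6, the 250 bases before the start) of 8 of the 12 highest genes were found by symbol. The letters TTGCNNAA, a core of C/EBP sites, were searched on both strands and occurred in 5 of the 8, namely Ahsg, Lcn2, Plac8, Saa1 and Saa3, in 1 of 8 matched promoters among the 12 lowest genes, Sfrp2, and in 9.56% of 32851 promoters. TTCNNNGAA, a STAT core, was found in 0 of 8 and 2 of 8 against 7.02% of all, and an NF-kappaB core in neither set against 1.21%. Both serum amyloid promoters are shown since their genes were at or near 0 without sepsis and high with it, with the C/EBP letters in capitals at positions -99 (chr7:46715677-46715926) and -182 (chr7:46742981-46743230), read on the minus strand. A gene counted when any of its promoters held the letters, while the percentages count each promoter by itself, so these are unlike measures. A match of letters is a description, not a site of binding.
Saa3: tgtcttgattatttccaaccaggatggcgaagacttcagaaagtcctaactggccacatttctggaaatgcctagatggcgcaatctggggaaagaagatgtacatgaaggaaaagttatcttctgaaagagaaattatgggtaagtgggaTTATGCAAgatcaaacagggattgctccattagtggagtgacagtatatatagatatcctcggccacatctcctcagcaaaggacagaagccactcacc
Saa1: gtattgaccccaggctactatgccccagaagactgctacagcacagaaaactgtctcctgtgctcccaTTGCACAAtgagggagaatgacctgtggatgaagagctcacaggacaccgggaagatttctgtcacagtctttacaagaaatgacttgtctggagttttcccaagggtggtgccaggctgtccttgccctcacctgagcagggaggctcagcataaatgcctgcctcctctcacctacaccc
Saa1 itself had 0 UMIs in sham and 212 in CLP, at least 48.8-fold higher against a floor of 3 UMIs in sham, while the exact interval of the log2 ratio reaches down to 5.30, and 238 in CLP plus stimulation. Saa1 and Saa2 are near-identical copies, so the split of reads between them is uncertain.

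Other members of the acute phase list differed less, or the other way. The metallothioneins Mt1 and Mt2, which bind zinc and copper, were at 5305, 5222, 7545 and 22240 CPM and at 958, 1416, 3592 and 6710 CPM. Mt1 was highest in CLP plus stimulation, with a log2 ratio over CLP of 1.56 (1.54 to 1.58). Steap4, a metalloreductase, was at 28.8, 49.3, 158 and 136 CPM, and Cp, the copper carrier ceruloplasmin, at 345, 519, 760 and 562. Socs3 and Cebpd, which respond early to cytokines, stood lower in CLP than in sham, with log2 ratios of -0.93 (-1.07 to -0.80) and -0.62 (-0.71 to -0.54). Neutrophil marker RNA in the members went from 52.9 CPM in sham to 632 in CLP alongside this list. Without members above the limit on UMIs of other types, the list median was 1.81. Members within that limit could still hold such RNA. The list median was 2.60 in adventitial, 2.14 in leukocyte-gated and 2.74 in endothelial-gated cells, so the direction was shared by all these cells.

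Of 12 measured complement genes, 4 were at least 2-fold higher in CLP than in sham and 0 lower. Of them, C3 and Cfb are also on the acute phase list. Cfb, factor B of the alternative pathway, was at 13.1, 19.2, 366 and 75.03 CPM, with a log2 ratio of 4.24 (3.78 to 4.77) in CLP over sham. C3, the central component, was at 507, 957, 2156 and 667 CPM and C4b at 226, 254, 556 and 186. All 3 had their highest level in CLP, and in CLP plus stimulation C3 and C4b lay below sham and Cfb above it. The list median was 0.47 (-0.78 to 1.17). Interferon response genes lay at 0.65 (0.48 to 0.96), 7 of 32 being higher and 2 lower. The nucleic acid sensor Zbp1 was at 4.16, 7.27, 72.4 and 38.2 CPM, the ubiquitin-like modifier Isg15 at 84.6, 99.6, 196 and 118 and the tethering factor Bst2 at 151, 246, 383 and 99.3. The transcription factor Irf1 went the other way, at 226, 302, 90.3 and 102 CPM.

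The glucocorticoid response list had a median of 0.28, with 7 of 20 higher and 0 lower. It also holds Nr3c1, the gene of the glucocorticoid receptor itself, which was its lowest member. Tsc22d3 (GILZ) was at 108, 145, 388 and 352 CPM, a log2 ratio of 1.42 (1.23 to 1.62) in CLP over sham. Fkbp5, a co-chaperone of the glucocorticoid receptor, was at 13.1, 16.6, 63.1 and 61.6 CPM and Pdk4, a kinase that holds back glucose oxidation, at 5.12, 9.34, 43.0 and 25.4, so for these 3 genes both septic libraries lay above the others. Chemokines had a median of -0.03 in CLP over sham, 0.10 under TMM and 0.08 under DESeq2 size factors, with 1 of 15 higher and 3 lower. Cxcl1, which draws neutrophils, was at 986, 1564, 1551 and 1936 CPM and so did not differ between sham and CLP beyond counting error, with a log2 ratio of -0.01 (-0.08 to 0.06).

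Of 18 collagen genes, 12 were at least 2-fold lower in CLP than in sham and 0 higher. Col15a1 (chr4:47208161-47313167, plus strand), a basement membrane collagen, was at 627, 712, 86.4 and 22.5 CPM, with a log2 ratio of -3.04 (-3.25 to -2.84). It was seen in 42.6%, 45.1%, 6.59% and 1.63% of members after thinning to 1000 UMIs. Col6a6 was at 89.7, 104, 11.5 and 3.50 CPM, -3.17 (-3.77 to -2.64), and Col14a1 at 281, 218, 41.6 and 36.8, -2.39 (-2.70 to -2.09). Col1a1, the main chain of fibrillar collagen I, was at 1281, 1872, 1038 and 301 CPM, a smaller difference of -0.85 (-0.92 to -0.78) in CLP over sham. Col4a1 and Col4a2, basement membrane chains, were the exceptions at 543, 728, 892 and 1196 CPM and at 217, 260, 315 and 478 CPM. Endothelial-gated barcodes held 1307 to 2103 CPM of Col4a1. The endothelial marker sum was also higher in the members of both septic libraries, at 336, 193, 716 and 1335 CPM over the 4 libraries. That rise came mostly from Fabp4, at 232, 120, 500 and 1198 CPM, and Ly6c1, at 28.2, 16.6, 144 and 75.3. Ly6c1 is also on the list of genes known from adventitial fibroblasts. The part of endothelial RNA in the Col4a1 and Col4a2 levels was not tested.

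Further matrix lists had medians below 0, and some share genes with the collagen list. Col4a1, Col4a2, Col4a5, Col15a1 and Col18a1 are also basement membrane genes of these lists. Col1a1, Col5a1, Col5a2, Col6a1, Col6a2 and Col6a3 are also on the fibroblast identity list. Basement membrane genes had a median of -1.005 with 7 of 14 lower, elastic fibre genes and small proteoglycans -0.67 with 8 of 21 lower, and fibroblast identity genes -0.93 with 12 of 24 lower. Ogn, a small proteoglycan, was at 858, 881, 205 and 58.7 CPM, and Eln, the elastin gene, at 468, 489, 172 and 63.6. Sparc, which binds collagen, was at 3371, 3745, 1722 and 669 CPM. Postn, the matricellular protein of activated fibroblasts, was at 397, 374, 88.5 and 35.0 CPM, a log2 ratio of -2.08 (-2.29 to -1.87), and the list of activated fibroblast and myofibroblast genes lay at -0.90 with 3 of 20 higher and 10 lower. Smooth muscle marker RNA was lower too, 428 CPM in sham and 94.6 in CLP, and it overlaps this list through Acta2, Tagln and Cnn1. Igf1, a growth factor for heart muscle, was at 338, 436, 120 and 70.9 CPM, a log2 ratio of -1.86 (-2.05 to -1.68). Leukocyte-gated barcodes also held Igf1, at 160 CPM in sham and 10.03 in CLP.

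Matrix remodelling genes did not share one direction. The list of matrix enzymes and inhibitors had a median of -0.41 with 4 of 28 higher and 5 lower. Timp1, an inhibitor of matrix metalloproteinases, was at 140, 143, 1038 and 1014 CPM, with a log2 ratio of 2.85 (2.68 to 3.04) in CLP over sham. Mmp3, the metalloproteinase stromelysin, was at 214, 267, 1186 and 519 CPM, and the crosslinking enzyme Lox at 53.8, 90.3, 233 and 406. Serpinh1, the collagen chaperone HSP47, was at 573, 857, 570 and 134 CPM. The inhibitor was thus about equally high in both septic libraries, the protease highest in CLP and the crosslinker highest in CLP plus stimulation.

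Counted per cell, the sums of the acute phase and collagen lists differed at both quartiles between sham and each septic library. After thinning to 1000 UMIs, which left 753, 288, 364 and 552 members, the acute phase list gave a median of 8, 9, 22 and 47 UMIs per cell, with quartiles of 4 and 14 in control and of 33 and 65.2 in CLP plus stimulation. Collagens gave 5, 7, 3 and 2 UMIs, and 2.39%, 3.82%, 8.24% and 20.5% of the members had none. Adventitial cells gave 8, 8, 20 and 40 UMIs of the acute phase list and 6, 7, 4 and 2 of the collagens. The ranges between the quartiles of the acute phase list overlapped slightly between sham and CLP, at 4 to 16.2 and 14 to 37.2 UMIs. As the sum counts UMIs, genes of high level such as Mt1, Mt2, Saa3 and Lcn2 weigh most in it. The part of RNA from other cells in these sums was not tested.

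**Figure D4:**
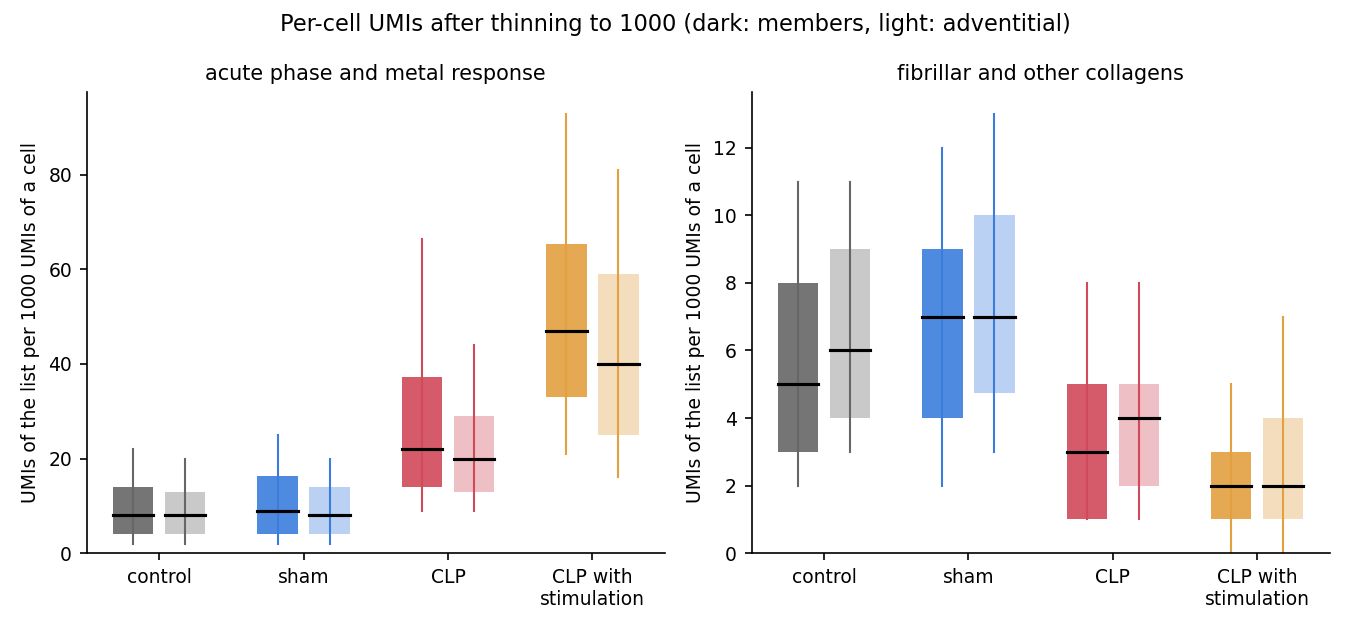
UMIs of the acute phase list and of the collagen list per 1000 UMIs of a cell (y axes) in the 4 libraries (x axes), in Pi16- Dpp4- fibroblasts (dark) and adventitial fibroblasts (light). Boxes span the quartiles, lines the 10th to 90th percentiles, and the bar is the median. Acute phase medians of the members go from 8 in control to 47 in CLP plus stimulation and collagen medians from 5 to 2. Genes of high level such as Mt1, Mt2, Saa3 and Lcn2 weigh most in the acute phase sum.

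The comparison in the study's title is that of CLP plus stimulation with CLP. Of 10379 genes, 547 (5.27%) were higher in CLP plus stimulation and 1709 (16.5%) lower, with a median of -0.16 over all genes. TMM scaling moved the median by 0.19 and DESeq2 size factors by 0.21, and 24.2% of the called genes were higher in the main scaling, 39.5% under TMM and 41.0% under DESeq2. Chemokines, acute phase genes and NF-kappaB genes were among the lists with higher medians, though the interval of each included 0. Collagens, growth factors, interferon response and stress genes of the endoplasmic reticulum were among the lower ones. The median of growth factors changed sign under other settings.

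Collagens had a median of -1.63 (-2.11 to -0.26), with 0 of 18 higher and 12 lower, and -1.48 in members with at least 2000 UMIs. Without the criterion on Pi16 and Dpp4, which adds the adventitial cells, it was -0.81. Col6a3 (chr1:90765923-90843971, minus strand), a chain of microfibrillar collagen VI, was at 334, 448, 146 and 23.9 CPM, with a log2 ratio over CLP of -2.60 (-2.97 to -2.26). Col5a3 was at 206, 174, 74.9 and 8.76 CPM, -3.08 (-3.70 to -2.54), and Col1a1 lay at -1.78 (-1.89 to -1.68). For these 3 genes CLP plus stimulation was the lowest of the 4 libraries. Fibroblast identity genes had a median of -0.91 with 2 of 24 higher and 11 lower, and -0.88 at 2000 UMIs or more. The list medians of collagens were -0.56 in adventitial, -1.24 in Comp Fmod and -0.79 in leukocyte-gated cells, and the difference between these populations was not tested.

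Chemokines had a median of 1.05 (-1.18 to 2.05), with 7 of 14 higher and 3 lower. In members with at least 2000 UMIs the median was 0.76, and at a collagen sum of at least 100 per 10000 it was 0.48. Cxcl14 (chr13:56288643-56296551, minus strand), a chemokine that fibroblasts make in many tissues, was at 287, 229, 377 and 1566 CPM, with a log2 ratio of 2.05 (1.96 to 2.15), and 20.6 and 22.7 CPM in leukocyte-gated barcodes of the septic libraries. Its share of thinned members with a UMI was 12.7%, 13.5%, 12.4% and 34.8%, against 1.80% and 2.89% of leukocyte-gated barcodes of the septic libraries. Cxcl5, a neutrophil chemokine, was at 11.8, 41.5, 44.1 and 179 CPM and Ccl11, the eosinophil chemokine eotaxin, at 39.7, 32.7, 26.5 and 110. Ccl5, with 2 UMIs in CLP and 182 in CLP plus stimulation, and Cxcl2 were higher as well, but leukocyte-gated barcodes of the same library held 462 and 16740 CPM of them, more than the 53.1 and 1096 CPM of the members. Cxcl12, which retains progenitor cells, went the other way at 108, 134, 144 and 47.0 CPM.

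Cytokine and matrix receptors had a median of 0.07, 3 of 26 being at least 2-fold higher and 5 lower. NF-kappaB feedback genes and targets had a median of 0.50 (-0.18 to 1.03) with 4 of 16 higher and 0 lower. Sod2, the mitochondrial superoxide dismutase, was at 193, 224, 491 and 1202 CPM, with a log2 ratio of 1.29 (1.20 to 1.38), and Irak3, an inhibitor of Toll-like receptor signalling, at 19.9, 22.3, 54.8 and 175. Il1r1, the interleukin 1 receptor, was at 126, 133, 158 and 500 CPM, with 17.5 in leukocyte-gated barcodes of CLP plus stimulation. Il6 was at 291 and 360 CPM in the septic libraries, a log2 ratio of 0.30 (0.18 to 0.43). Neutrophil marker RNA in the members also went from 632 to 1234 CPM. Without members above the limit on UMIs of other types, the medians were 0.75 for chemokines and 0.37 for NF-kappaB genes. Members within that limit could still hold such RNA, and its part in these medians was not tested.

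The acute phase list had a median of 0.62 with 8 of 28 higher and 4 lower, and 0.44 in members with at least 2000 UMIs, so its genes divided. Mt1 was higher in CLP plus stimulation than in CLP, with a log2 ratio of 1.56, Saa3 and Serpina3n were close, at 0.20 (0.18 to 0.22) and 0.01 (-0.03 to 0.05), and Cfb and Chil1 were lower, at -2.29 (-2.49 to -2.09) and -1.08 (-1.17 to -0.998). Outside the list, Prg4 lay at 1.19 (1.17 to 1.22) and Mmp3 at -1.19 (-1.28 to -1.11). Complement had a median of -0.63 with 0 of 12 higher and 4 lower, and C3 lay at -1.69 (-1.76 to -1.62). Interferon response genes lay at -0.88 (-1.23 to -0.47), 0 of 34 being higher and 13 lower, with Bst2 at -1.95 (-2.13 to -1.77). Ifi27l2a, an interferon-induced gene outside the list, was at 1096, 1145, 2005 and 274 CPM, with 5000 and 1075 CPM in leukocyte-gated barcodes of the septic libraries.

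Paracrine growth factors had a median of -1.24 with 0 of 18 higher and 10 lower, but 0.09 after the members were thinned to 1000 UMIs and 0.04 among genes with at least 100 UMIs, so the sign of the median changed with the molecules and genes counted. Angpt1, the angiopoietin that stabilises vessels, was at 51.6, 86.7, 37.3 and 3.50 CPM, with a log2 ratio of -3.36 (-4.41 to -2.55), and Vegfd at 27.5, 35.8, 26.9 and 3.79. Gas6, the ligand of the Axl and Mertk receptors, was at 414, 567, 787 and 264 CPM, and Vegfa, which drives vessel growth, at 139, 137, 147 and 191. Genes of the endoplasmic reticulum stress response had a median of -0.91 with 0 of 16 higher and 7 lower. Pdia4, a protein disulfide isomerase, was at 62.8, 116, 101 and 15.5 CPM, while Hspa5, the main chaperone of that compartment, was at 1758, 2021, 2132 and 1895 CPM, a log2 ratio of -0.17 (-0.22 to -0.12).

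Among the single genes of the largest log2 ratio, Ly6k, a surface protein of the Ly6 family, was at 8.65, 8.82, 10.04 and 214 CPM, a log2 ratio of 4.39 (3.87 to 5.01), and lay at 0 and 2.26 CPM in leukocyte-gated barcodes of the septic libraries. It was seen in 7.07% of thinned CLP plus stimulation members and 0.275% of CLP members. Csf3, the growth factor of neutrophils, had 0, 0, 17 and 181 UMIs over the libraries. In CLP plus stimulation, leukocyte-gated barcodes held 176 CPM against 52.8 in the members. Hpgd, which breaks down prostaglandins, was at 46.1, 37.4, 7.88 and 70.1 CPM, a log2 ratio of 3.12 (2.52 to 3.85), but -0.74 at a collagen sum of at least 100 per 10000. On the lower side stood Cyp2e1, at 40.4, 43.1, 125 and 7.88 CPM, with -3.96 (-4.61 to -3.42). Cyp2e1 was thus highest in CLP and lowest in CLP plus stimulation.

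**Figure D5:**
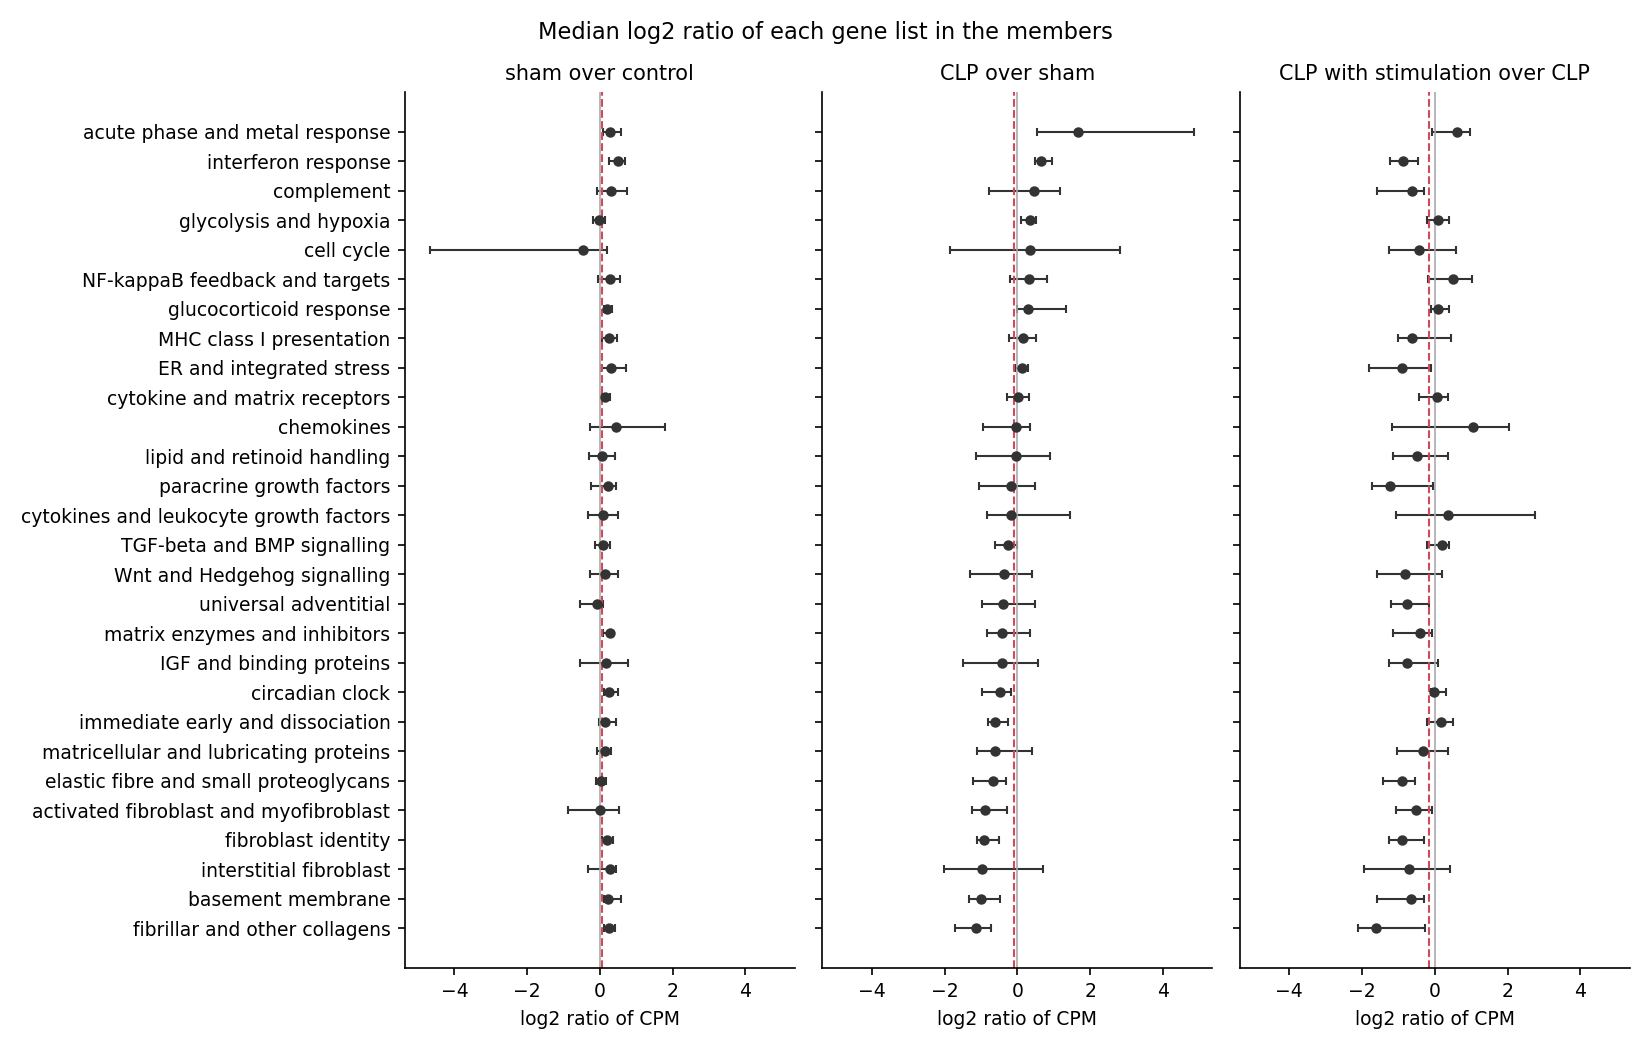
Median log2 ratio of each gene list in Pi16- Dpp4- fibroblasts (x axes) for sham over control, CLP over sham and CLP plus stimulation over CLP, with the lists on the y axis, bars for the 95% interval of the median over the list's genes, and a dashed line at the median of all genes. The acute phase list stands highest in CLP over sham at 1.67, and collagens lie at -1.14 in CLP over sham and -1.63 in CLP plus stimulation over CLP.

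Against sham, CLP plus stimulation had 790 of 10195 genes (7.75%) higher and 2333 (22.9%) lower, with a median of -0.24 over all genes. TMM scaling moved that median by 0.33, and 25.3% of the called genes were higher in the main scaling and 45.3% under TMM. Collagens had a median of -2.94 (-3.50 to -1.81), with 0 of 18 higher and 15 lower, against -1.14 in CLP over sham. Acute phase genes lay at 2.38 (1.46 to 6.18), 21 of 27 being higher and 0 lower, against 1.67 in CLP over sham. With the 3 members that had no UMI in sham set to 3 UMIs there, it was 2.24. Interferon response genes lay at -0.14 (0.19 under TMM and 0.18 under DESeq2 size factors) and complement at -0.48, against 0.65 and 0.47 in CLP over sham. Both comparisons share the sham library, so their values are given side by side without a test of their difference.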

How the data were processed

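RNA of all heart cells was counted as UMIs in 4 libraries, 1 per group. Library construction used the Chromium 3' v3 chemistry per the labels' protocols, and per the file headers the deposited count matrices, raw UMI counts for 32285 genes, were written by Cell Ranger 5.0.0. The submitters' processing notes also name STAR and the build mm10. How many mice, cultures or preparations stand behind a library is not given in the sources used here.

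The gates were applied to the deposited counts, and the UMIs of the members were summed per library and given as CPM, with exact Poisson intervals. Log2 ratios had 0.5 added to each count, with exact conditional binomial intervals for the ratio of 2 counts. A gene was measured with at least 20 UMIs over both libraries and called at 2-fold or more. The 28 gene lists (520 genes) hold no gene of the rule, and 3 symbols borne by 2 gene IDs were left out. Shares have exact Clopper-Pearson 95% intervals. PCR duplicates were already collapsed by UMI. For shares of cells and counts per cell, cells were thinned to 1000 UMIs with seed 7. Doublets were not removed in the main values. Scrublet scores (scanpy 1.11.5) marked the highest 0.8% per 1000 kept barcodes, 96, 21, 32 and 48 of the members, and these were left out in an alternative. Further alternatives were a minimum of 2000 UMIs, a collagen sum of at least 100, a Pdgfra UMI, few UMIs of other cell types, thinning, TMM (edgeR 4.0.16) and DESeq2 1.42.0 size factors, other count minimums, 5 CPM added and the mean over cells. No count model was fitted.

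Genes were named when among the 12 highest or 12 lowest log2 ratios at 50 CPM or more in the higher library, passing over marker genes of other cell types, unnamed gene models and genes over 10 times as high in leukocyte-gated or endothelial-gated barcodes. Against other fibroblasts the 10 highest and 10 lowest were eligible, and of each list the 2 highest, the 2 lowest and members at 100 CPM or more. Not every eligible gene is printed. The members, lists and rules were chosen with earlier results of these data known. Coordinates are those of GENCODE vM21 (GRCm38), in which all 593 genes looked up were found. Python 3.11.15, numpy 2.4.6, scipy 1.17.1, matplotlib 3.10.9 and R 4.3.3 were used, and the gates and ratios were tested on simulated data.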

Additional observations from a re-analysis of the deposited data

How the results depend on the processing

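Each library is 1 sample, so no setting measures the spread between hearts, and depth limits which cells lack Pi16 and Dpp4 and what can be seen in genes of few UMIs. Of the counts of genes, 77 values under an alternative stayed within 1.5 times the main count and 39 did not. Of 1456 list medians under an alternative, 1439 lay within the interval of the main median, and 102 had the other sign, of which 2 belonged to a median whose interval lay on 1 side of 0. Of 931 values of named genes, 826 lay within the interval, 103 outside it with the same sign and 2 outside it with the other sign. The cause was not tested.

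In sham over control (207 higher, 190 lower), there were 1651 higher and 1210 lower with at least 1 count, 27 and 33 with at least 100 counts, 30 and 52 with 5 CPM added, 435 and 360 by the mean over cells, and 131 higher without the criterion on Pi16 and Dpp4, an alternative chosen after seeing the data. In CLP over sham (340, 745) the counts were 2178 and 2862 with at least 1 count, 135 and 260 with at least 100, 191 and 347 with 5 CPM added, 546 higher by the mean over cells and 304 lower with thinned members. In CLP plus stimulation over CLP (547, 1709) they were 2243 and 4199, 268 and 607, and 268 and 808 under the first 3 of these settings, 607 lower with thinned members, 839 higher under TMM and 867 under DESeq2 size factors. In CLP plus stimulation over sham (790, 2333) they were 1721 and 4956, 430 and 865, and 497 and 1514, 812 lower with thinned members, 1353 higher under TMM and 1311 under DESeq2 size factors. At least 1 or 100 counts changes how many genes are measured, and 5 CPM added shrinks the ratios of low genes by construction.

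With thinned members the circadian clock list lay at 0.0426 and the cell cycle list at 0.33 in sham over control, glycolysis at 0.0455 in CLP over sham, and interferon response at 0.0880 and paracrine growth factors at 0.28 in CLP plus stimulation over sham. In CLP plus stimulation over CLP, paracrine growth factors changed sign to 0.0893 with thinned members and to 0.0367 at 100 counts or more, and TGF-beta signalling lay at 0.39 under DESeq2. In CLP plus stimulation over sham, interferon response lay at 0.35 without the criterion on Pi16 and Dpp4, at 0.19 under TMM and at 0.18 under DESeq2. There the circadian clock lay at -0.0509 and -0.0614, TGF-beta signalling at 0.40 and 0.39 and immediate early genes at 0.0432 and 0.0327 under TMM and DESeq2. Clu in sham over control was 0.31 when a Pdgfra UMI was required, and Hpgd in CLP plus stimulation over CLP was -0.74 at a collagen sum of 100.

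The share of kept barcodes was 6.10% in control and 6.97% in CLP plus stimulation at 2000 UMIs or more, and over the 4 libraries 4.46%, 3.09%, 3.87% and 5.16% at a collagen sum of 100, 2.71%, 2.41%, 3.28% and 4.36% with a Pdgfra UMI, and 12.4%, 10.3%, 13.5% and 13.9% when thinned before the rule. Counting only members with few UMIs of other types, for shares a setting chosen after seeing the data, it was 4.89%, 4.21% and 4.81% in control, CLP and CLP plus stimulation. In this setting, here and among fibroblast-gated cells, the limit was put on the members and not on the cells they were divided by. The share of fibroblast-gated cells was 23.3%, 17.8%, 18.8% and 39.5% at 2000 UMIs, 22.1%, 17.0%, 18.1% and 41.3% with a Pdgfra UMI, 49.5%, 47.8%, 48.8% and 71.8% when thinned before the rule, 24.1%, 18.4% and 28.9% in control, CLP and CLP plus stimulation with few UMIs of other types, and 46.9% in CLP plus stimulation at a collagen sum of 100. Thinned before the rule, 8 genes were higher and 10 lower than in adventitial cells in all 4 libraries, and 51 and 38 against Comp Fmod cells.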

Other observations

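At least 3 of Igfbp3, Ptn, Rspo3, Ecrg4, Cyp2e1 and Cox4i2, a set chosen after its values were seen from the genes higher in Pi16- Dpp4- fibroblasts than in adventitial cells, had a UMI in 112 of 616 control members with at least 2000 UMIs (18.2%), 64 of 261 in sham (24.5%), 63 of 333 in CLP (18.9%) and 12 of 404 in CLP plus stimulation (2.97%). In adventitial cells of the same depth the shares were 1.89%, 2.12%, 1.98% and 0.856%, lower as the choice of the genes requires. Whether these genes share cells more than their single levels would give was not tested. Pdgfra was seen in 45.5%, 71.9%, 73.0% and 66.7% of the members with at least 3 of these genes and in 62.3%, 82.2%, 78.9% and 80.6% of the other members at that depth.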
